A study of Mus musculus with 18 samples.

Results

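The genes described here are 46 genes of DNA replication and mitosis, out of 55536 genes in the deposited count table. They are a list of S phase and mitosis gene symbols, drawn up with earlier results of these data known, and all 46 were found in the table by symbol. RNA was measured in 3 immortalised mouse embryonic fibroblast lines: wild type (WT), a knock-out of p65 (p65 KO) and a knock-out of IKK2 (IKK2 KO). The Rela gene encodes p65, a subunit of the transcription factor NF-κB, and Ikbkb encodes IKK2, a kinase that frees NF-κB from its inhibitor. Cells were left untreated or were given tumour necrosis factor alpha (TNF, 10 ng/ml), an inflammatory cytokine, for 45 or 90 min. That gave 9 groups of 2 libraries each, called library a and library b here, names that carry no order and pair nothing. All groups shared the same culture medium with serum. There was 1 line per genotype, so the effect of a genotype and any other difference between lines cannot be told apart. The labels do not say that the 2 libraries of a group came from separate cultures, so a p-value here speaks of library-to-library spread, which may be technical.

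Before a cell divides it copies its DNA once. The origin recognition machinery, with Cdc6 and Cdt1, loads the ring of Mcm2 to Mcm7 onto DNA in G1; in S phase Cdc45 and the GINS complex turn that ring into a moving helicase, and polymerases follow it, held by the Pcna clamp that the Rfc complex loads. Cyclins and Cdk1 then drive entry into mitosis, where the Aurora and Polo kinases, the spindle checkpoint and motor proteins separate the chromosomes. Many of the replication genes are known targets of E2F factors, and many mitosis genes carry CHR and CCAAT elements bound by the DREAM complex, MYB-MuvB and NF-Y, so transcripts of this kind follow the share of cycling cells. In bulk RNA, fewer cells in S phase or mitosis and less RNA per such cell cannot be told apart.

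Library totals ran from 16707900 to 23469000 counts, and all 46 genes passed the filter that left 16322 genes for testing. Levels are given in CPM, counts scaled to a common library total. A change is given as a log2 ratio with its standard error (±), fitted over all 18 libraries and tested with edgeR's quasi-likelihood method, and "called" means an adjusted p under 0.05 over all genes tested. Rela was at 63.8 ± 0.879 CPM (SD, n = 2) in untreated WT, at 5.68 ± 0.606 in p65 KO and at 69.7 ± 3.84 in IKK2 KO. Ikbkb was at 59.9 ± 0.760 CPM in WT, at 42.7 ± 0.0141 in p65 KO and at 43.4 ± 0.371 in IKK2 KO. The gene-level count of Ikbkb was thus as low in p65 KO as in the line labelled IKK2 KO, so it does not by itself check that label, and IKK2 KO below always means the line so labelled. Summed fibroblast markers were at 11009 to 11383 CPM in the WT libraries, 4620 to 4765 in p65 KO and 11005 to 11436 in IKK2 KO. In these lines 9, 9 and 10 of 10 markers were above 1 CPM. The markers did not all go the same way in p65 KO. The collagen gene Col3a1 was at a mean of 22.9 CPM there against 342 in WT, and Col1a1, Col1a2, Pdgfrb, Vim, Fn1 and S100a4 were also lower. Pdgfra (59.0 against 18.3 CPM) and Dcn (17.3 against 6.24) were higher. Thy1 was near 0 in WT and p65 KO and at 27.7 CPM in IKK2 KO. Epithelial, endothelial, myeloid, muscle and adipocyte markers summed to at most 3.23 CPM in any library. The epithelial keratin gene Krt5, the macrophage gene Adgre1 and the muscle genes Myod1 and Myog had 0 counts in all 3 lines. Neural markers summed to 464 to 573 CPM in WT, 203 to 221 in p65 KO and 332 to 369 in IKK2 KO. They were led by Nes in WT and IKK2 KO and by Sox2 in p65 KO. In p65 KO Nes was at a mean of 11.7 CPM against 423 in WT, and Tubb3 was also lower. Sox2 (159 against 75.6 CPM) and Map2 (36.2 against 17.7) were higher there. The part of these line differences in the results below was not tested.

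RefSeq promoter windows (GRCm38.p6, 250 bases before to 50 after a transcription start) were found for 39 of the 46 genes, as 42 windows. The 7 genes without one were Ccne2, Mcm4, Pole, Ccna2, Gins1, Gins2 and Aurkb. Both strands were searched for E2F letters (TTTGGCGC, TTTGGCGG, TTTCGCGC, TTTCGCGG or TTTCCCGC), CHR letters (TTTGAA or else TTCGAA), for CCAAT, and for NF-κB letters (a GGG, then any 2 bases, then TTTCC). E2F letters stood in 12 of the 42 windows (28.6%), against 2.61% of all 32851 windows. CHR letters stood in 19 (45.2%, against 19.2%) and CCAAT in 34 (81%, against 37.4%). NF-κB letters stood in 1 window, that of Birc5 (2.38%, against 1.63%). E2F and CHR letters divided by role, whereas CCAAT stood in most windows of both kinds. Of the 18 windows of replication and nucleotide genes, 8 held E2F letters, 4 held CHR letters and 14 held CCAAT. Of the 13 windows of mitotic kinase, checkpoint, chromosome and motor genes, 0 held E2F letters, 11 held CHR letters and 12 held CCAAT. A match of letters is a description and shows no binding.

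The 250 bases before the start of 6 genes named below are shown. They are a licensing gene and a clamp loader gene that were higher in both knock-outs, and a checkpoint gene. Also shown are the motor gene and the E2F gene that rose with TNF in WT, and the cyclin gene that differed in opposite directions. Among the licensing and helicase genes, E2F letters stood before the start of Cdc6, Mcm5, Mcm6 and Mcm7. They did not stand before the start of Mcm2, Mcm3, Mcm10 and Cdc45, which held CCAAT there. No E2F, CHR or CCAAT letters were found before the start of Cdt1. Capitals mark E2F, CHR and CCAAT letters on either strand, and the sequences run 5′ to 3′ along the gene.
Mcm6 (chr1:128359706-128359955, minus strand): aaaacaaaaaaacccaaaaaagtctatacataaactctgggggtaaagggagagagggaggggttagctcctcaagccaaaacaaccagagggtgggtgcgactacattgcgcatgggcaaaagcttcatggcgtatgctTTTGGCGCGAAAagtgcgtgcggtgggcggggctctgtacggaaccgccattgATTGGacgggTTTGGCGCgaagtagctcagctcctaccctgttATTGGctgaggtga
Rfc3 (chr5:151651209-151651458, minus strand): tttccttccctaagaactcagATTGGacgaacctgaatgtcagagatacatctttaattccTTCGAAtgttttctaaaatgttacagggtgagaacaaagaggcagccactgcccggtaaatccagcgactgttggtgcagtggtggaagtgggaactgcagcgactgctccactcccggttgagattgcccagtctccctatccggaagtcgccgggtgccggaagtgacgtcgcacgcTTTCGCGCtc
Bub1b (chr2:118597961-118598210, plus strand): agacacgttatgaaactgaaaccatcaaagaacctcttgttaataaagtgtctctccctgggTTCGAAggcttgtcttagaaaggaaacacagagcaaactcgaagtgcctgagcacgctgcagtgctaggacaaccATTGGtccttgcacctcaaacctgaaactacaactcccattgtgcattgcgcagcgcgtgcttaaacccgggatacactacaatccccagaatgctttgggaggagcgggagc
Kif23 (chr9:61946800-61947049, minus strand): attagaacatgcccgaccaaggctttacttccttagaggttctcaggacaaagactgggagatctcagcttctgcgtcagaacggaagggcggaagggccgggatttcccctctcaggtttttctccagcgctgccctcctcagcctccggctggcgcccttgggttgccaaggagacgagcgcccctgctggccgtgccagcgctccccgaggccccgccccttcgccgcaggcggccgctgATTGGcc
E2f8 (chr7:48881597-48881846, minus strand): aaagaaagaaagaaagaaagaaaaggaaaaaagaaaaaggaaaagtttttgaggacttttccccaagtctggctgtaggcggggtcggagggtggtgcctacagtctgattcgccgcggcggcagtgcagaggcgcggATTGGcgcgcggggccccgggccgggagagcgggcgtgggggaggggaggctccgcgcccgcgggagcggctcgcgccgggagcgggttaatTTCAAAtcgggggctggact
Ccne1 (chr7:38107491-38107740, minus strand): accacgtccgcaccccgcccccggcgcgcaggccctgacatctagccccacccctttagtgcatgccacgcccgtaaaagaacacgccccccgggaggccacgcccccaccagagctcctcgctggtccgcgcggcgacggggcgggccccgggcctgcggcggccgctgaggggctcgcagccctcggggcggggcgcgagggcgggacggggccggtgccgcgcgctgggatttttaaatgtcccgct
In Mcm6 the E2F letters begin 110, 106 and 47 bases before the start, and the first 2 overlap. In Rfc3 they begin 10 bases before it, with CHR letters 189 and CCAAT 229 bases before it. Bub1b has CHR letters 188 and CCAAT 113 bases before the start, E2f8 has them 20 and 112 bases before it, and Kif23 has CCAAT 7 bases before it. None of these letters were found in the stretch of Ccne1 shown.

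Before TNF, most of the genes were higher in p65 KO than in WT, and most were higher in IKK2 KO than in WT. The 46 genes together took 5589 ± 24.4 CPM (SD, n = 2) in WT, 7801 ± 57.2 in p65 KO and 6788 ± 0.320 in IKK2 KO. In p65 KO against WT, 40 of 46 were called higher and 4 lower, where 39.8% of all genes were called higher and 41.1% lower. Their median log2 difference was 0.67, against -0.02 over all genes tested. In IKK2 KO against WT, 35 were called higher and 6 lower (35.9% and 38.4% of all genes), with a median of 0.42 against -0.03. In IKK2 KO against p65 KO, 11 were called higher and 27 lower (35.5% and 36.9% of all genes), with a median of -0.15 against 0. In both knock-outs the share called higher than WT was well above that of all genes and the share called lower well below it, whereas in IKK2 KO against p65 KO more of the 46 than of all genes were lower. The 3 comparisons share libraries, 2 at a time, and their values are given side by side only. Between 35.5% and 41.1% of all genes were called in each direction of each comparison, so sizes are given throughout.

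**Figure D1:**
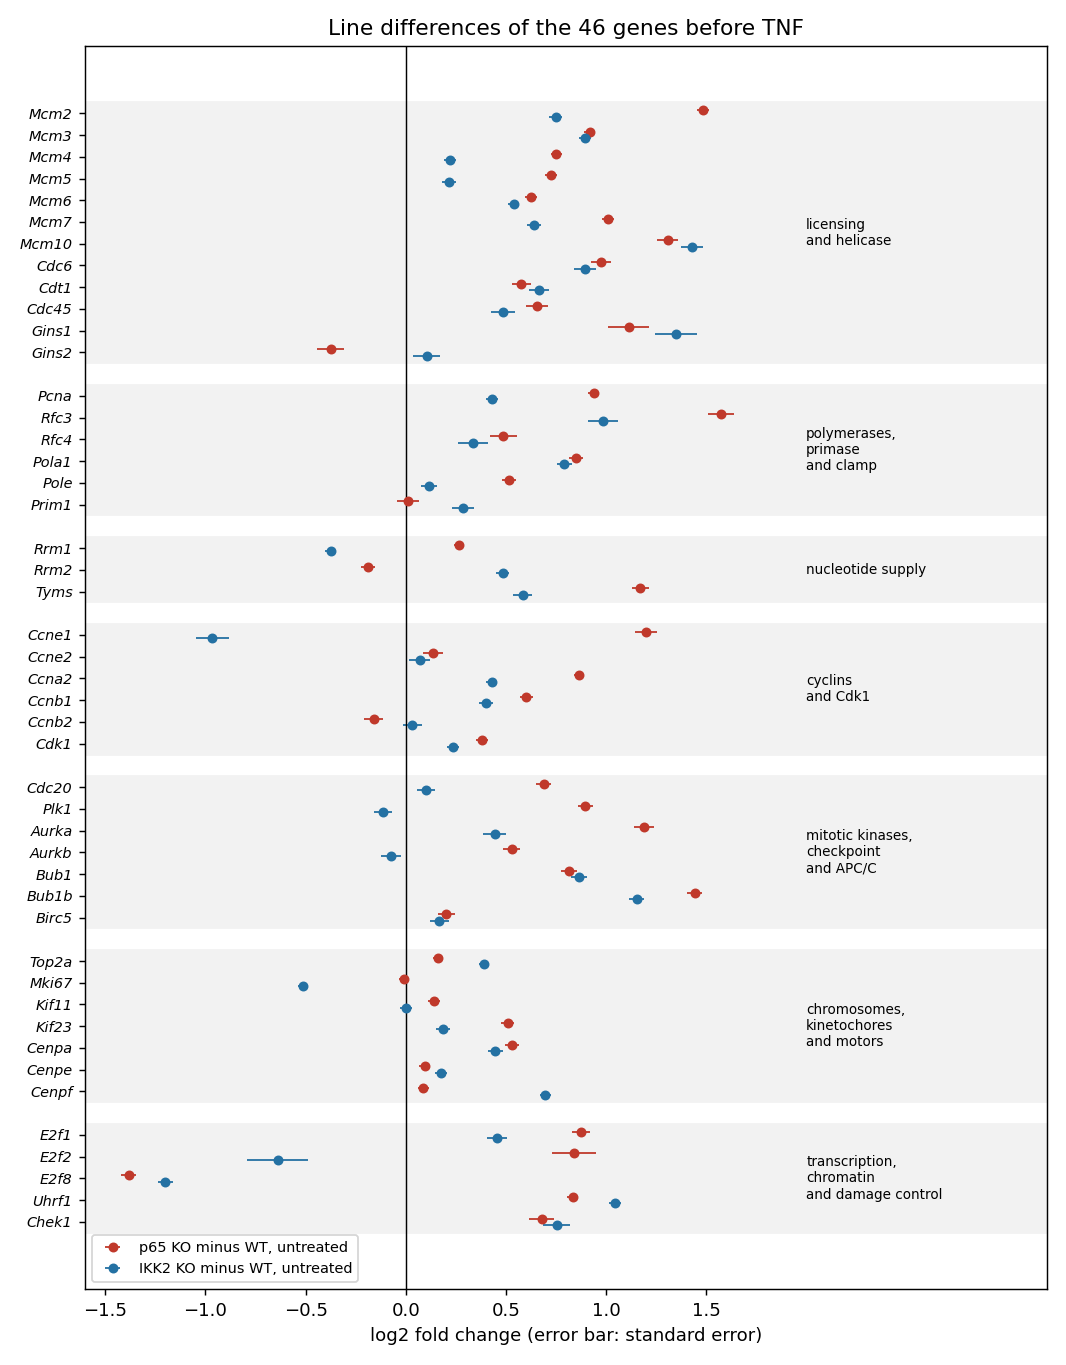
Log2 difference (x axis, error bar the standard error) of each of the 46 genes (y axis, grouped by role) for p65 KO minus WT in red and IKK2 KO minus WT in blue, untreated libraries, 2 per group. The licensing genes lie right of 0 in both comparisons except Gins2 in p65 KO (-0.37), Ccne1 lies at 1.20 and -0.97, and E2f8 lies far left in both (-1.38 and -1.20).

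Nearly all licensing and helicase genes were higher in both knock-outs. Of 12, 11 were called higher and 1 lower in p65 KO (median 0.83), and 11 higher and 0 lower in IKK2 KO (median 0.65). Mcm2, a subunit of the MCM ring, was at 123 and 126 CPM in WT libraries a and b, at 345 and 351 in p65 KO and at 209 in both IKK2 KO libraries. The 3 lines did not overlap, and p65 KO was the highest. Against WT, p65 KO differed by 1.48 ± 0.0299 and IKK2 KO by 0.75 ± 0.0322 (adjusted p = 2.10e-36 and 4.30e-24). Mcm10, which helps to start the helicase, was at 32.3 and 33.6 CPM in WT, 81.2 and 81.7 in p65 KO, and 87.8 and 89.2 in IKK2 KO. Here IKK2 KO was the higher of the knock-outs, by 0.12 ± 0.0456 (adjusted p = 0.0175). Gins1, a GINS subunit, was the scarcest of the 12, at 6.16 and 7.81 CPM in WT, 14.3 and 15.7 in p65 KO, and 17.8 and 17.4 in IKK2 KO.

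Among the MCM ring genes the rise was unequal. Mcm2 to Mcm7 were higher than WT by 0.63 (Mcm6) to 1.48 (Mcm2) in p65 KO and by 0.21 (Mcm5) to 0.89 (Mcm3) in IKK2 KO. Mcm3 differed between the knock-outs by -0.02 (95% interval -0.0804 to 0.0317), while Mcm4 and Mcm5 were lower in IKK2 KO than in p65 KO by 0.53 and 0.51 on the log2 scale. Of the loading factors, Cdc6 was higher than WT by 0.98 in p65 KO and 0.90 in IKK2 KO, and Cdt1 by 0.58 and 0.67. The licensing gene that went the other way was Gins2, called lower in p65 KO (-0.37 ± 0.0670, adjusted p = 3.17e-06) and not called in IKK2 KO (0.10 ± 0.0669). Of the exon bases of Gins2, 67.3% are shared with Gse1 on the opposite strand, and whether reads were assigned by strand is not given in the sources used here. Gins2 and the single MCM genes of this paragraph were picked after their values were seen.

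The polymerase, primase and clamp genes were higher in both knock-outs, 5 of 6 called higher in p65 KO (median 0.68) and 6 of 6 in IKK2 KO (median 0.38). Rfc3, a subunit of the clamp loader, showed the largest rise of all 46 genes in p65 KO. It was at 16.9 and 15.8 CPM in WT, at 47.5 and 50.4 in p65 KO and at 33.9 and 31.3 in IKK2 KO. The lines did not overlap, with differences from WT of 1.57 ± 0.0660 and 0.99 ± 0.0760 (adjusted p = 1.16e-24 and 2.27e-15). Pcna, the sliding clamp, was at 152 and 142 CPM in WT, 285 and 279 in p65 KO, and 198 and 199 in IKK2 KO. Pola1, the catalytic subunit of the polymerase that makes primers with primase, was higher by 0.85 and 0.79. Prim1, the small primase subunit, was not called in p65 KO (0.01 ± 0.0536) and was higher in IKK2 KO by 0.29.

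The 3 nucleotide supply genes did not move together. Tyms, which makes thymidylate, was at 48.0 and 43.9 CPM in WT, 104 and 103 in p65 KO, and 66.9 and 71.2 in IKK2 KO, so both knock-outs lay above WT. The 2 subunits of ribonucleotide reductase went opposite ways before TNF. Rrm1, the large subunit, was higher than WT in p65 KO (0.27 ± 0.0265) and lower in IKK2 KO (-0.38 ± 0.0283). Rrm2, the small subunit that is made in S phase, was lower in p65 KO (-0.19 ± 0.0344) and higher in IKK2 KO (0.48 ± 0.0338). All 4 were called (adjusted p from 1.12e-15 for Rrm1 in IKK2 KO to 4.68e-06 for Rrm2 in p65 KO). At 45 and 90 min of TNF Rrm2 was not called in p65 KO against WT (-0.05 and -0.02).

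Ccne1, cyclin E1, which pairs with Cdk2 at the entry to S phase, gave the widest gap between the knock-outs. It was at 20.03 and 19.3 CPM in WT, 45.8 and 44.9 in p65 KO, and 9.90 and 10.3 in IKK2 KO. The lines did not overlap, with WT in the middle. The difference from WT was 1.20 ± 0.0554 in p65 KO and -0.97 ± 0.0828 in IKK2 KO (adjusted p = 3.57e-23 and 6.36e-14), and IKK2 KO was below p65 KO by 2.17 ± 0.0694 on the log2 scale (adjusted p = 9.17e-29). The other E cyclin, Ccne2, differed from WT by 0.14 and 0.07. Of the exon bases of Ccne2, 17.4% are shared with Ints8 on the opposite strand. Ccna2, cyclin A2 of S phase and G2, was higher in both, by 0.87 and 0.43, as was Ccnb1, cyclin B1 of mitosis, by 0.60 and 0.40. Of the 6 cyclin and Cdk1 genes, 5 were called higher and 1 lower (Ccnb2, -0.16) in p65 KO, and 3 higher and 1 lower (Ccne1) in IKK2 KO. Ccnb2 and Ccne2 were named here after their values were seen.

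**Figure D2:**
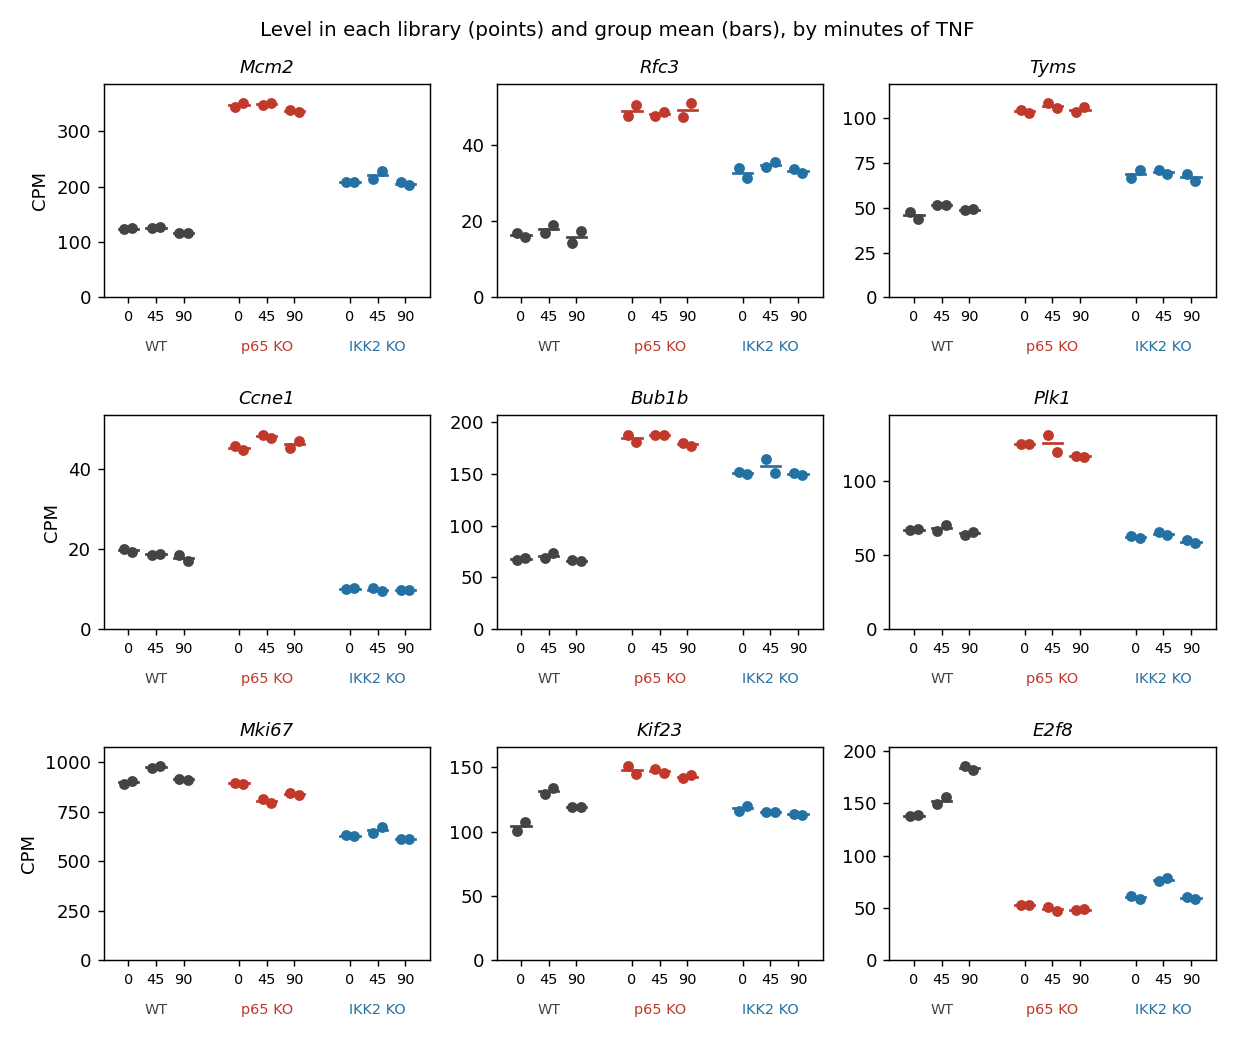
CPM (y axis, from 0) of 9 genes in every library (points, 2 per group) with the group mean (bar), at 0, 45 and 90 min of TNF (x axis) for WT in grey, p65 KO in red and IKK2 KO in blue. For Mcm2, Rfc3, Tyms, Ccne1 and Bub1b the lines stay apart at every time, whereas Kif23 and E2f8 rise with TNF in WT.

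Most mitotic kinase and checkpoint genes separated the knock-outs from each other, but Bub1 and Birc5 were not called between them before TNF. In p65 KO 7 of 7 were called higher than WT (median 0.82). In IKK2 KO 5 were called higher and 1 lower (median 0.17). Bub1b, the checkpoint protein BubR1, was at 67.1 and 68.6 CPM in WT, 188 and 180.4 in p65 KO, and 151 and 150.2 in IKK2 KO, a rise of 1.44 ± 0.0359 and 1.15 ± 0.0384 (adjusted p = 5.12e-33 and 3.78e-28). Bub1, its partner kinase, was higher by 0.82 and 0.86. The Polo kinase gene Plk1 was at 67.1 and 67.3 CPM in WT, 125 in both p65 KO libraries, and 62.8 and 61.5 in IKK2 KO. It was higher than WT in p65 KO by 0.90 and lower in IKK2 KO by 0.11 on the log2 scale (adjusted p = 3.13e-24 and 0.0267). Aurka, the spindle pole Aurora kinase, was higher by 1.19 and 0.44. Aurkb, the Aurora kinase of the centromere, was higher in p65 KO by 0.53 and not called in IKK2 KO (-0.07).

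The genes of chromosomes, kinetochores and motors held the most abundant transcripts, and in p65 KO their median difference was the smallest of the 7 roles. Per kilobase of exon, untreated WT gave Mki67, the Ki-67 proliferation marker, 89.1 CPM and Top2a, the topoisomerase that untangles sister chromatids, 64.3, while E2f2 was the scarcest of the 46 at 1.21. In p65 KO 6 of 7 were called higher (median 0.14), and in IKK2 KO 5 were called higher and 1 lower (median 0.19). Mki67 itself was at 889 and 905 CPM in WT, 894 and 889 in p65 KO, and 630.4 and 627 in IKK2 KO. The WT and p65 KO libraries overlapped (-0.01, 95% interval -0.0560 to 0.0405), and IKK2 KO lay below both (-0.51 ± 0.0245, adjusted p = 2.14e-22). Cenpf, a kinetochore protein, was higher in IKK2 KO by 0.70 and in p65 KO by 0.09. Cenpa, the centromeric histone, was higher by 0.45 and 0.53, and Top2a by 0.39 and 0.16.

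Of the 5 genes of transcription, chromatin and damage control, 4 were called higher and 1 lower in p65 KO, and 3 higher and 2 lower in IKK2 KO. E2f8, an E2F that represses transcription, was the 1 gene of this group lower in p65 KO, and its fall was the largest of the 46 in each knock-out. It was at 138 and 139 CPM in WT, 53.2 and 52.7 in p65 KO, and 61.7 and 58.6 in IKK2 KO. Both knock-outs lay far below WT, by -1.38 ± 0.0377 and -1.20 ± 0.0393 (adjusted p = 1.52e-31 and 2.24e-28). Of the exon bases of E2f8, 11.2% are shared with Gm2788 on the opposite strand. Of the activating E2F genes, E2f1 was higher by 0.88 and 0.46. E2f2 was higher in p65 KO by 0.84 and, like E2f8, lower in IKK2 KO (-0.64 ± 0.152). Uhrf1, which keeps DNA methylation through replication, was higher by 0.83 and 1.04.

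The line differences were measured again in the separate libraries of the 2 TNF times. At 45 min 37 of 46 were called higher and 5 lower in p65 KO against WT (39.1% and 41.3% of all genes), and at 90 min 39 and 4 (39% and 40.7%). For IKK2 KO against WT the counts were 33 higher and 5 lower at 45 min (35.4% and 38.4%), and 35 and 7 at 90 min (35.4% and 37.7%). For IKK2 KO against p65 KO they were 13 and 27 at 45 min (36% and 37.4%), and 12 and 26 at 90 min (36.1% and 37.3%). In p65 KO against WT, 36 genes were called higher and 3 lower at all 3 times (34.8% and 35.2% of all genes); the 3 were Gins2, Ccnb2 and E2f8. In IKK2 KO against WT the counts were 32 and 4 (30.5% and 31.5%), the 4 being Rrm1, Ccne1, Mki67 and E2f8. In IKK2 KO against p65 KO they were 9 and 25 (29.5% and 32.3%).

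Some genes kept their sizes over time and others did not. The difference of Mcm2 in p65 KO was 1.48, 1.47 and 1.54 at 0, 45 and 90 min, and that of Bub1b was 1.44, 1.41 and 1.43. Ccne1 in IKK2 KO against p65 KO was at -2.17, -2.30 and -2.24. In p65 KO against WT, Kif23 was at 0.51, 0.16 and 0.26, Ccne2 at 0.14, 0.42 and 0.45, and E2f8 at -1.38, -1.63 and -1.92. In IKK2 KO against WT, E2f2 was at -0.64, 0.23 (not called) and -0.42. A few genes near 0 were called in both directions over time: Cenpf in p65 KO (0.09, -0.08 and 0.07) and Kif23 in IKK2 KO (0.19, -0.19 and -0.07, the last not called). Mki67 in p65 KO was not called before TNF (-0.01) and was called lower at 45 and 90 min (-0.28 and -0.12). The median p65 KO minus WT difference of all genes described here was 0.67, 0.62 and 0.70 at the 3 times. With protein-coding genes alone it was 0.58, 0.54 and 0.62. The values of Cenpf in p65 KO, and of Mki67 there before TNF, are no larger than or close to such a shift. Their direction can thus depend on the scaling.

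**Figure D3:**
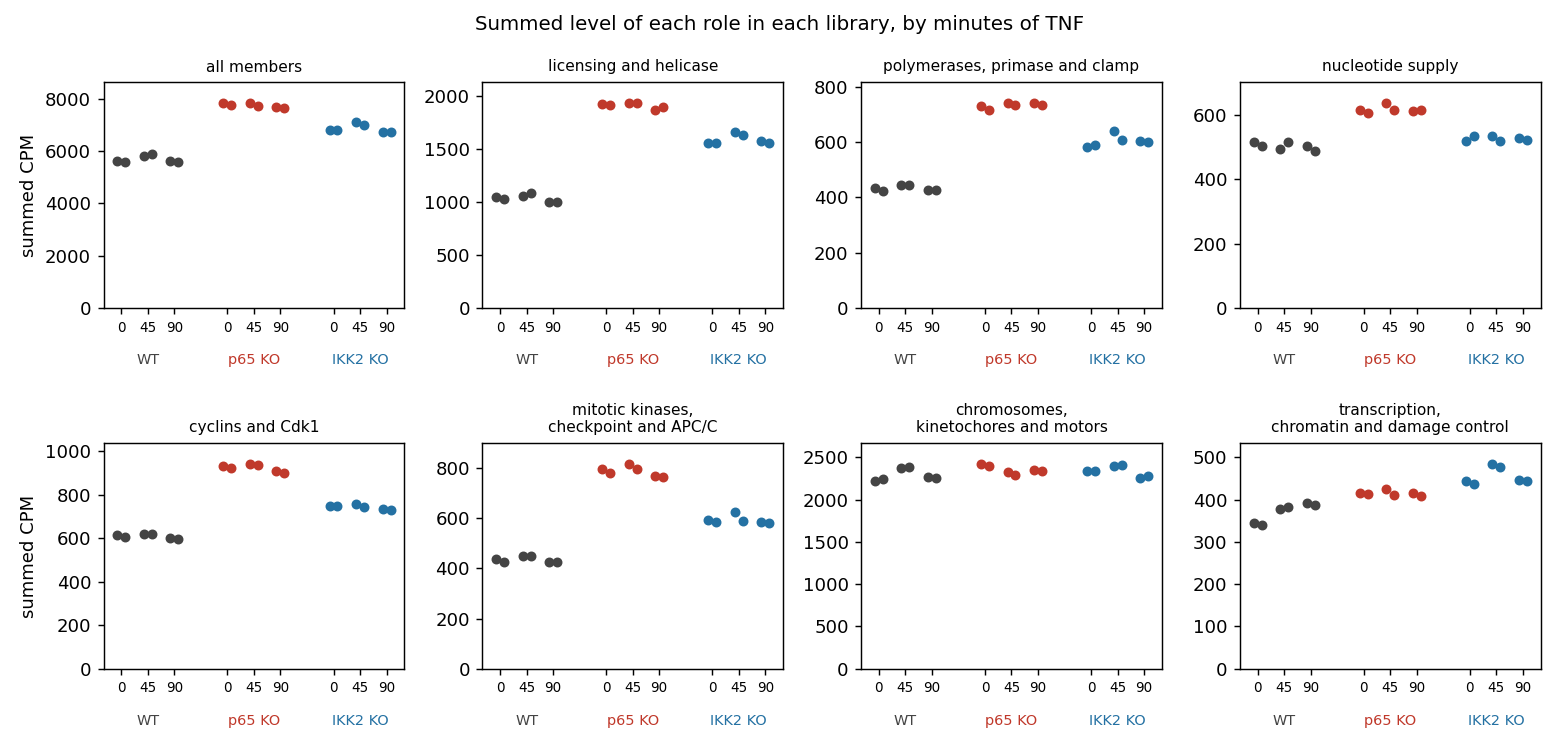
Summed CPM (y axis, from 0) of all 46 genes and of each role in every library (points, 2 per group) at 0, 45 and 90 min of TNF (x axis), WT in grey, p65 KO in red and IKK2 KO in blue. The licensing sums of the 3 lines stay apart at every time, with untreated means of 1037 CPM in WT, 1924 in p65 KO and 1557 in IKK2 KO.

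TNF changed few of the genes and by small amounts. In WT at 45 min 7 were called higher and 1 lower (5.73% and 6.45% of all genes). At 90 min 2 were called higher and 5 lower (5.81% and 3.51%). In p65 KO 0 were called higher and 1 lower at 45 min (1.17% and 0.49%), and 0 and 2 at 90 min (4.06% and 2.42%). In IKK2 KO 8 were called higher and 1 lower at 45 min (3.33% and 5.43%), and 0 and 3 at 90 min (3.36% and 1.12%). Set against all genes, a larger share of the 46 was called higher at 45 min in WT and IKK2 KO, and lower at 90 min in WT. Many of these calls rested on single libraries, as given below. The genes called lower in p65 KO (1 and 2) and in IKK2 KO at 90 min (3) are too few to set against the share of all genes. Except for E2f2 at 90 min in WT and at both times in IKK2 KO, the 95% interval of every gene lay within 0.5 of 0 on the log2 scale in the 6 responses. The standard error of a response had a median of 0.0412 in WT, 0.0345 in p65 KO and 0.0383 in IKK2 KO at 45 min.

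**Figure D4:**
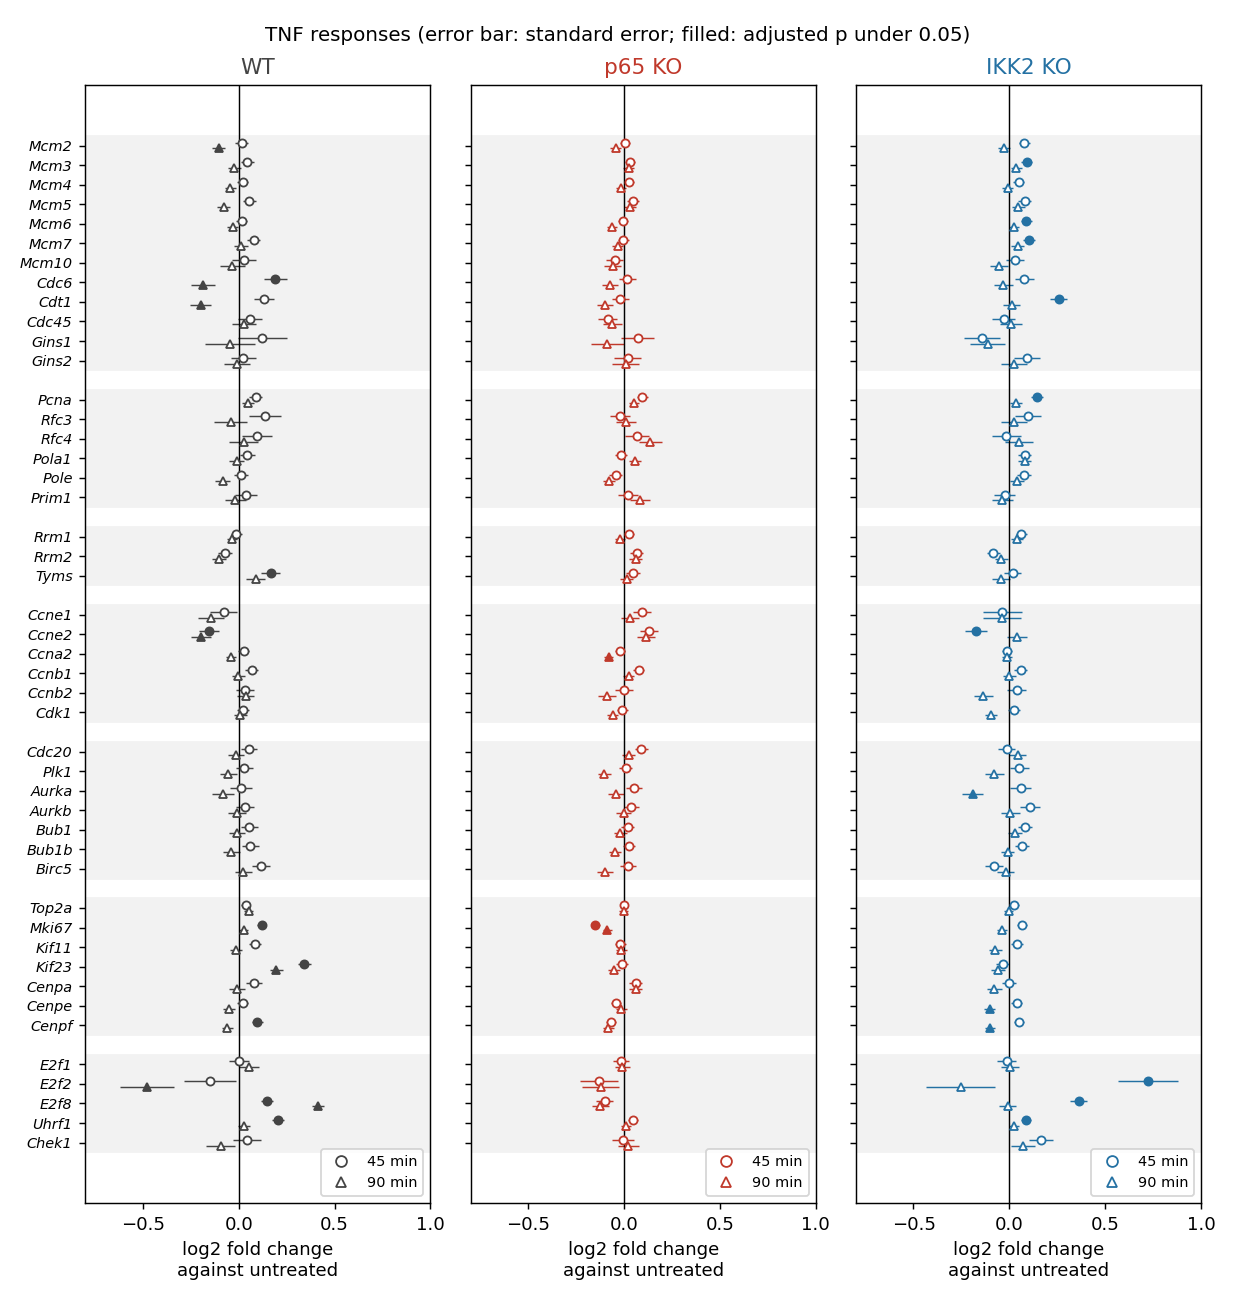
Log2 change against untreated libraries (x axis, error bar the standard error) of each gene (y axis, grouped by role) at 45 min (circles) and 90 min (triangles) of TNF, with 1 panel per line and filled symbols for adjusted p under 0.05. Most points lie close to 0, apart from Kif23 (0.34 at 45 min) and E2f8 (0.41) and E2f2 (-0.48) at 90 min in WT, and E2f2 (0.72) and E2f8 (0.36) at 45 min in IKK2 KO.

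The responses of the lines were also tested against each other. Between p65 KO and WT, 1 gene had a higher and 5 a lower response at 45 min (3.47% and 3.61% of all genes), and 2 a higher and 3 a lower one at 90 min (1.92% and 3.47%). Between IKK2 KO and WT, 2 had a higher and 1 a lower response at 45 min (2.05% and 2.82%), and 0 a higher and 2 a lower one at 90 min (0.833% and 1.52%). These comparisons share the WT libraries.

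Kif23, the kinesin of the central spindle that is needed for cytokinesis, rose with TNF in WT and was called in neither knock-out. In WT it was at 101 and 107 CPM untreated, at 129 and 134 at 45 min and at 119 in both libraries at 90 min. All 4 treated libraries lay above both untreated ones, with a change of 0.34 ± 0.0342 at 45 min and 0.20 ± 0.0344 at 90 min (adjusted p = 9.73e-11 and 4.36e-05). In p65 KO it went from 151 and 145 CPM to 148 and 146, then 142 and 144, and in IKK2 KO from 116 and 120.1 to 115 in both, then 113 in both. At 45 min the p65 KO response differed from the WT one by -0.35 ± 0.0461, and at 90 min by -0.25 ± 0.0461 (adjusted p = 2.15e-07 and 2.18e-04). The IKK2 KO response differed from the WT one by -0.38 ± 0.0496 and -0.26 ± 0.0496 (adjusted p = 2.77e-07 and 7.92e-04). All of these calls also held with any 1 library left out.

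E2f8 rose in WT through both times and in IKK2 KO for a short time. In WT it was at 138 and 139 CPM untreated, 149.6 and 156 at 45 min and 186 and 182 at 90 min. These 3 groups did not overlap, and the change was 0.15 ± 0.0329 at 45 min and 0.41 ± 0.0318 at 90 min (adjusted p = 9.96e-04 and 5.34e-14). The 45 min call was lost without WT library b at 45 min (adjusted p = 0.0737). In IKK2 KO it was at 61.7 and 58.6 CPM, then 76.1 and 78.4, then 60.7 and 58.8, so the 45 min libraries stood above the rest (0.36 ± 0.0445, adjusted p = 4.72e-08) and the 90 min ones were back at the untreated level (-0.01 ± 0.0461). In p65 KO it was at 53.2 and 52.7, then 51.2 and 47.3, then 48.3 and 48.9 CPM, with changes of -0.10 and -0.12 that were not called. At 90 min the response differed from that in WT by -0.54 ± 0.0543 in p65 KO and by -0.42 ± 0.0561 in IKK2 KO (adjusted p = 5.28e-10 and 7.47e-07).

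At 45 min in WT, Uhrf1 rose from 143 and 138 CPM to 161 and 163 (0.21 ± 0.0307, adjusted p = 1.41e-06) and was back at 143 and 144 at 90 min. Mki67 rose from 889 and 905 CPM to 969 and 979.8 (0.12 ± 0.0240, adjusted p = 2.18e-04). In p65 KO Mki67 moved the other way, from 894 and 889 CPM to 815 and 794 (-0.15 ± 0.0240, adjusted p = 6.96e-05). In neither line did the untreated and 45 min libraries overlap, and the responses of p65 KO and WT differed by -0.27 ± 0.0339 (adjusted p = 8.03e-08). In IKK2 KO Mki67 changed by 0.07 (adjusted p = 0.107). These calls also held with any 1 library left out.

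The other calls at 45 min in WT were weaker. Cdc6 was called higher by 0.19, Tyms by 0.17 and Cenpf by 0.10, and Ccne2 was called lower (-0.16). Leaving out 1 library ended each of them. The call of Cdc6 was lost without any 1 of the 4 libraries (adjusted p up to 0.169). That of Tyms was lost without either 45 min library or untreated library b (up to 0.290). That of Cenpf was lost without either 45 min library or untreated library a (up to 0.171), and that of Ccne2 without either untreated library or 45 min library b (up to 0.611).

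At 90 min in WT the calls below untreated were those of Cdt1 (-0.20 ± 0.0539), Ccne2 (-0.19 ± 0.0525), Cdc6 (-0.19 ± 0.0615), Mcm2 (-0.10 ± 0.0341) and E2f2 (-0.48 ± 0.142). Each rested on single libraries too. Without 90 min library b the adjusted p rose to 0.133 for Cdt1 and 0.464 for Cdc6, and without 90 min library a to 0.273 for E2f2. Cdt1 and E2f2 were also lost without untreated library b, and Cdc6 without either untreated library. Ccne2 was lost without either 90 min library or untreated library a (up to 0.0845), and Mcm2 without any of the 4 (up to 0.273). In p65 KO at 90 min the called genes were Mki67 (-0.09) and Ccna2 (-0.08), with adjusted p up to 0.216 and 0.322 without 90 min library b; each call was lost without any 1 of the 4 libraries.

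Between 45 and 90 min, more genes fell than rose in WT and IKK2 KO. In WT 1 was called higher (E2f8, 0.27) and 9 lower (8.08% and 6.22% of all genes). The median change of the 46 was small, at -0.07 against 0 over all genes tested. Cdc6 went from 29.3 and 29.9 CPM to 23.8 and 21.9 (-0.38 ± 0.0619, adjusted p = 8.79e-06), and Cdt1 from 46.5 and 51.1 to 39.5 and 38.4 (-0.33 ± 0.0546, adjusted p = 1.03e-05). In both the 2 times did not overlap. Uhrf1 fell by 0.18, Cenpf by 0.16 and Kif23 by 0.15 on the log2 scale. The call of Kif23 was lost without 45 min library b (adjusted p = 0.0572), whereas those of Cdc6, Cdt1, Uhrf1, Cenpf and E2f8 held with any 1 library left out. Mcm2, Mcm5, Mki67 and Kif11, a spindle motor, were also called lower (-0.13 to -0.09), each call being lost without 1 to 3 of the 4 libraries. The highest adjusted p was 0.101 for Mcm2 and 0.0575 for Mki67 without 45 min library b and 90 min library b, 0.0841 for Mcm5 without 90 min library a, and 0.267 for Kif11 without 90 min library b. In p65 KO 0 were called in either direction (2.27% and 0.453% of all genes) by edgeR or DESeq2, with 9 at an unadjusted p under 0.05.

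In IKK2 KO the replication genes Cdt1 and Pcna rose for a short time. At 45 min Cdt1 went from 74.7 and 67.3 CPM to 85.1 and 84.2 (0.26 ± 0.0457, adjusted p = 6.37e-05), and at 90 min it was at 70.3 and 72.6. Pcna went from 198 and 199 CPM to 225 and 215 (0.15 ± 0.0308, adjusted p = 7.35e-04), then to 202 and 204. For both, the 45 min libraries stood above all others of the line. In WT at 45 min Cdt1 and Pcna changed by 0.13 and 0.09, neither called. The IKK2 KO response was not called different from the WT one for either gene (0.12 and 0.06, adjusted p = 0.452 and 0.655). E2f2 was at 4.40 and 3.19 CPM, then 6.19 and 6.26, then 3.33 and 2.99 (0.72 ± 0.157 at 45 min, adjusted p = 1.04e-03), and its call was lost without untreated library b (adjusted p = 0.122). Its response differed from that of WT by 0.87 ± 0.208 (adjusted p = 0.00525), a call lost without IKK2 KO untreated library b (0.130) or WT 45 min library b.

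The calls of Mcm3, Mcm6, Mcm7 and Uhrf1 in IKK2 KO at 45 min (0.09 to 0.10) were lost without 45 min library a or either untreated library, with adjusted p up to 0.498. Ccne2 was called lower there (-0.17) and was lost without either 45 min library or untreated library b (up to 0.393). From 45 to 90 min in IKK2 KO 1 gene was called higher (Ccne2, 0.21) and 12 lower (10.1% and 5.59% of all genes). The falls of E2f2 (-0.98), E2f8 (-0.37), Cdt1 (-0.24), Cenpf (-0.15) and Cenpe (-0.14), a kinetochore motor, held with any 1 library left out. Aurka fell by 0.25 on the log2 scale, a call lost without 45 min library a (adjusted p = 0.273), and Ccne2 was lost without 45 or 90 min library b (up to 0.0677). Ccnb2, Cdk1, Pcna, Kif11, Mki67 and Mcm2 were called lower as well (-0.17 to -0.10). Without 45 min library b the adjusted p was 0.253 for Ccnb2, 0.106 for Cdk1, 0.0784 for Mki67 and 0.393 for Mcm2, without 45 min library a it was 0.163 for Pcna, and without 90 min library a it was 0.142 for Kif11. At 90 min against untreated, the 3 called genes Aurka (-0.19), Cenpe (-0.10) and Cenpf (-0.10) were each lost without any 1 of the 4 libraries (adjusted p up to 0.333, 0.318 and 0.151).

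Genes of the same pathways outside the 46 were read from 5 further lists. Of 41 other replication genes 37 were called higher and 2 lower in untreated p65 KO against WT (median 0.62), and 28 and 4 in IKK2 KO (median 0.33). Orc6, of the origin recognition complex, was at a mean of 56.3 CPM in WT and 144 in p65 KO (1.35), and Chaf1a, which deposits histones behind the fork, was higher by 1.16 and 1.20. Of 48 other mitosis genes 36 were called higher and 8 lower in p65 KO (median 0.42), and 25 and 15 in IKK2 KO (median 0.16). Pttg1, securin, was higher by 1.29 and 1.45, and Ckap2, a spindle protein, was lower in both, by 0.81 and 1.57 on the log2 scale. From 45 to 90 min of TNF in WT, 0 of the other replication genes were called higher and 16 lower, and 0 of the other mitosis genes higher and 20 lower. In IKK2 KO the counts were 1 and 9, and 0 and 25. Of all genes 8.08% rose and 6.22% fell over that time in WT, and 10.1% and 5.59% in IKK2 KO.

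Regulators of the cell cycle were read from the remaining 3 lists. Of 17 tested G1 cyclins, kinases and inhibitors, 11 were called higher and 5 lower in p65 KO, and 4 and 10 in IKK2 KO. Cdkn1a, the Cdk inhibitor p21, was at a mean of 189.5 CPM in untreated WT, 4.59 in p65 KO and 32.6 in IKK2 KO, a difference of -5.36 ± 0.0595 and -2.54 ± 0.0436 (adjusted p = 3.69e-46 and 7.12e-39). Cdkn2a, the locus of the inhibitors p16 and Arf, was higher in p65 KO by 3.43 (5.91 against 64.3 CPM). Ccnd1, cyclin D1, was lower by 1.13 and 1.30 on the log2 scale. Of 18 E2F, RB, DREAM and MYC regulators 9 were called higher and 4 lower in p65 KO, and 10 and 6 in IKK2 KO. Rb1, which restrains the E2F factors, was at 41.9, 9.92 and 15.7 CPM in the 3 lines (-2.08 and -1.41). Mybl2, the B-Myb of MYB-MuvB, was higher in p65 KO by 1.80, and Myc in IKK2 KO by 2.17. Of 9 quiescence genes 3 were called higher and 4 lower in p65 KO, and 2 and 6 in IKK2 KO. Across all genes 39.8% were called higher and 41.1% lower in p65 KO, and 35.9% and 38.4% in IKK2 KO, so the quiescence counts in p65 KO are near the background. The part of these differences in those of the 46 genes was not tested.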

How the data were processed

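The table deposited by the authors holds estimated counts per gene, unscaled, of which 31.8% of the non-zero values are fractional. Per the submitters' processing notes, HISAT2, Trimmomatic, FastQC 0.11.8, Subread 1.6.2 (featureCounts) and edgeR 3.26.4 were used, with GRCm38. The library kit keeps strand, but whether counting used it was not given in the sources used here, nor was the annotation release or the handling of multi-mapping reads. The 18 libraries were read as paired ends of 76 bases. Symbols and positions were taken from GENCODE M21 by gene ID. Of the 46 genes 45 had a fractional value in at least 1 library, and 11 shared exon bases with another gene. The largest shares were those of Gins2 (67.3%), Ccne2 (17.4%), Rfc4 (12.7%), Mcm7 (12.6%), Ccna2 (12.5%) and E2f8 (11.2%).

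The values were rounded to whole numbers, filtered with filterByExpr (0.0601% of the counts lost) and scaled by TMM. The robust quasi-likelihood test of edgeR 4.0.16 (R 4.3.3) was fitted with 1 coefficient per group over all libraries (residual degrees of freedom 9, biological coefficient of variation 1.93%), with 22 contrasts, Benjamini-Hochberg adjustment over the 16322 genes of each contrast and a threshold of 0.05. Responses of lines were compared by contrasts of differences. Alternatives were DESeq2 1.42.0, RLE size factors, no low-count filter, the compared libraries alone, protein-coding genes alone, each library left out in turn and, for motifs, the forward strand alone. The pipeline was tested on simulated data with planted changes. Of 1.25-fold changes it recovered 80% between untreated p65 KO and WT and 74% in WT at 45 min. In the difference of responses between p65 KO and WT at 90 min it recovered 50%. Of 4-fold changes it recovered 100% in each. Small responses, and small differences of responses, can thus have been missed. Figures used Python 3.11.15 and matplotlib 3.10.9.

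The members, roles and lists were chosen with earlier results of these data known. In each comparison up to 3 genes per role with the largest change past the threshold were named, any of the 46 called in a response or a difference of responses, up to 4 genes per further list, and Rela and Ikbkb.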

Additional observations from a re-analysis of the deposited data

Results flagged for a closer look

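The following TNF responses differed between lines by a test of the difference itself (edgeR's quasi-likelihood test, adjusted p under 0.05), given as the response in the knock-out minus that in WT on the log2 scale. In p65 KO at 45 min these were Ccne2 (0.28), Mki67 (-0.27), Kif23 (-0.35), Cenpf (-0.17), E2f8 (-0.25) and Uhrf1 (-0.16), 1 higher and 5 lower of 46, where 3.47% of all genes were called higher and 3.61% lower. At 90 min they were Rrm2 (0.16), Ccne2 (0.31), Mki67 (-0.11), Kif23 (-0.25) and E2f8 (-0.54), against 1.92% and 3.47% of all genes. In IKK2 KO at 45 min they were Kif23 (-0.38), E2f2 (0.87) and E2f8 (0.21), against 2.05% and 2.82%, and at 90 min Kif23 (-0.26) and E2f8 (-0.42), against 0.833% and 1.52%. All of these differences use the same WT libraries.

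The differences of Kif23 at both times in both knock-outs, of Mki67 at 45 min in p65 KO, and of E2f8 at 90 min in both knock-outs kept their calls with any 1 library left out and in every other fit tried, and that of Ccne2 at 90 min in p65 KO with any 1 library left out. At 45 min in p65 KO, E2f8 and Cenpf were lost without p65 KO 45 min library b (adjusted p = 0.0689 and 0.0681), Uhrf1 without that library or WT untreated library b (0.0703), and Ccne2 without WT 45 min library b (0.136). At 45 min in IKK2 KO, E2f8 was lost without IKK2 KO untreated library b (0.166), IKK2 KO 45 min library b or WT 45 min library a, and E2f2 without IKK2 KO untreated library b (0.130) or WT 45 min library b. At 90 min in p65 KO, Rrm2 was lost without WT 90 min library b (0.229), p65 KO 90 min library b, WT untreated library a or either p65 KO untreated library, and Mki67 without any of the 8 libraries but WT untreated library b (up to 0.233).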

How the results depend on the processing

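Counts of called genes in the 9 line comparisons and over all 3 times stayed within 1.5 times under every alternative. Direction was checked for 256 values of named genes, and none reversed. Sizes between lines moved with the scaling. The untreated median in p65 KO against WT was 0.67, but 0.58 with protein-coding genes alone and 0.70 without the low-count filter. In IKK2 KO against WT these medians were 0.42, 0.40 and 0.42. Line differences as small as such shifts can depend on the scaling. TNF counts moved more than the line counts, and the cause was not tested. With DESeq2 they were 3 (of 8) in WT at 45 min, 2 (of 7) at 90 min, 1 (of 2) in p65 KO at 90 min, 4 (of 9) and 0 (of 3) in IKK2 KO at 45 and 90 min, and in the differences of responses 3 (of 5) in p65 KO at 90 min and 1 (of 3) in IKK2 KO at 45 min. With the compared libraries alone they were 5 in WT at 45 min, 2 (of 1) and 5 (of 2) in p65 KO at 45 and 90 min, and 4 in IKK2 KO at 45 min. With protein-coding genes alone p65 KO at 45 min gave 2, and without the low-count filter p65 KO at 90 min gave 1. Leaving out each library in turn gave 3 to 7 in WT at 45 min (3 without 45 min library b), 3 to 4 in WT at 90 min (3 without 90 min library b), 0 to 1 in p65 KO at 90 min, 0 to 1 in p65 KO from 45 to 90 min (1 without 45 min library b), 4 to 11 in IKK2 KO at 45 min (4 without untreated library b), 0 in each case in IKK2 KO at 90 min, 3 to 5 in the p65 KO difference at 90 min and 1 to 3 in the IKK2 KO difference at 45 min (1 without IKK2 KO untreated library b). On the forward strand alone CCAAT stood in 21 of the 42 windows instead of 34. No paired analysis was possible because the columns carry a group and a library code that is in no label, so no replicate number could be assigned to a library.

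With 2 libraries per group, many TNF calls depend on single libraries, including changes as large as that of E2f2 in IKK2 KO at 45 min (0.72, adjusted p = 0.122 without untreated library b), and genes of few counts such as E2f2 and Gins1 have wide errors. In the comparison of p65 KO from 45 to 90 min edgeR and DESeq2 each called 0 genes, with 9 at an unadjusted p under 0.05 in edgeR.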
